A study of Mus musculus with 12 samples.

Results

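Mitochondrial ribosomal proteins were taken as the protein-coding genes whose symbol starts with Mrpl or Mrps followed by a digit, and 78 of the 54532 genes in the expression table met that rule. Of these, 49 were named Mrpl and 29 Mrps. By subunit, 51 encode proteins of the large subunit of the mitochondrial ribosome, since Mrps18a and Mrps30 belong to it in spite of their names, and 26 encode proteins of the small subunit. The product of Mrps36 is now known as a part of the 2-oxoglutarate dehydrogenase complex rather than of the ribosome, and it was kept because the rule holds it. The genes lie on 17 chromosomes.

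The values came from RNA sequencing of mouse primary hepatocytes, the parenchymal cells of the liver, in 4 groups of 3 libraries. They are G3bp1-HKO hepatocytes given PA (HKO PA), G3bp1-Flox hepatocytes given PA (Flox PA), G3bp1-HKO hepatocytes given BSA (HKO BSA) and G3bp1-Flox hepatocytes given BSA (Flox BSA), from mice 6 weeks old in every group. The stated purpose was to learn how G3BP1, a stress granule protein that binds RNA, bears on fatty liver inflammation. HKO, PA and BSA are the labels' own terms, and no source used here gives the Cre driver, the dose of PA, the time of treatment or the number of mice. Nothing says whether the 3 libraries of a group came from separate mice, so the tests reflect the spread among libraries, which may be technical.

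The mitochondrial ribosome translates the few messages of the mitochondrial genome, all of which encode subunits of the respiratory chain and ATP synthase. Its RNAs are made in the organelle, whereas all of its proteins are encoded in the nucleus, made in the cytosol and imported. Many of these proteins have a bacterial counterpart and the others are particular to mitochondria, and hepatocytes, which are rich in mitochondria, need the machine for oxidative metabolism.

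G3bp1 itself was at 7.03, 7.39 and 8.09 FPKM in HKO PA, against 39.1, 39.0 and 41.6 FPKM in Flox PA, and at 7.77, 8.48 and 8.50 FPKM in HKO BSA, against 40.0, 37.7 and 45.7 FPKM in Flox BSA. Reads in genes, recovered from the FPKM values (fragments per length of gene, scaled to a library size), numbered 15020982 to 18418586 per library. The size used for scaling differed from the reads in genes. In M reads it was 13.436, 15.118 and 15.102 in HKO PA, against 15.794, 15.021 and 15.328 in genes. In every Flox library it lay above the reads in genes, and in every HKO BSA library below. A size below the reads in genes raises a library's FPKM values, so differences in FPKM depend on this scaling. The members' share of reads, given below, does not. The 14 macrophage markers were lower in HKO in both media, with summed levels of 126 to 158 FPKM in HKO PA, against 1929 to 2188 FPKM in Flox PA, and 86.1 to 121 FPKM in HKO BSA, against 2253 to 2363 FPKM in Flox BSA. None of them was at 0 in any library. The 10 hepatocyte markers summed to 19359 to 32769 FPKM in HKO PA, against 12007 to 12762 FPKM in Flox PA, and to 18796 to 27026 FPKM in HKO BSA, against 11855 to 12670 FPKM in Flox BSA. Most of that sum came from Alb, Apoa2, Apoa1 and Ttr, while Cps1, Hnf4a and Apob were at 6.53 to 12.1, 6.88 to 16.1 and 6.27 to 20.6 FPKM over the 12 libraries. Hnf4a averaged 10.95 FPKM in HKO PA, against 14.18 FPKM in Flox PA. Apob averaged 7.88 FPKM in HKO BSA, against 14.42 FPKM in Flox BSA. Each averaged higher in HKO in the other medium. Of the 10 hepatocyte markers, 5 rose and 0 fell in PA (3 and 0 without HKO PA library 1), and 4 rose and 0 fell in BSA. The 8 endothelial markers summed to 12.1 to 16.6 FPKM in HKO PA, against 25.5 to 28.2 FPKM in Flox PA. In BSA they summed to 14.0 to 15.9 FPKM in HKO, against 27.6 to 30.02 FPKM in Flox. Most of these sums came from Stab1, Cdh5 and Eng. Of the 5 tested, 3 fell and 0 rose in PA, and 4 fell and 0 rose in BSA. Clec4g, Kdr and Lyve1 averaged higher in HKO PA than in Flox PA, and Clec4g did so in BSA too. The 5 neutrophil markers summed to 0.107 to 0.572 FPKM in HKO PA, against 13.1 to 17.3 FPKM in Flox PA, and to 0 to 0.371 FPKM in HKO BSA, against 12.8 to 16.6 FPKM in Flox BSA. The 5 cholangiocyte markers summed to 16.1 to 28.2 FPKM in HKO PA, against 9.55 to 10.3 FPKM in Flox PA. In BSA they summed to 14.1 to 22.5 FPKM in HKO, against 12.1 to 13.2 FPKM in Flox. Most of these sums came from Sox9 and Spp1, the only 2 tested. Both rose in PA (1 without HKO PA library 1), and Sox9 alone rose in BSA. Krt19 and Epcam averaged higher in HKO in both media. Krt7, at most 0.0622 FPKM in any library, averaged lower in HKO BSA than in Flox BSA. The part of these markers in the results below was not tested. HKO PA library 1 stood apart from its group, with the highest sum of hepatocyte markers of all 12 libraries, and the main counts in PA are given with and without it.

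The family was well expressed. Averaged over the 12 libraries, the 77 genes that averaged 1 FPKM or more had a median level of 21.7 FPKM, against 7.11 FPKM in the 8786 other protein-coding genes tested; 58 were over 10 FPKM and 6 were under 5 FPKM. The median was 25.4 FPKM for the 50 large-subunit genes tested and 16.3 FPKM for the 26 small-subunit genes. The remaining gene, Mrpl53, was listed at 0 in every library. In the GENCODE M21 annotation 88% of its exon bases are shared with Gm42688, a protein-coding gene on the same strand, which was itself at 0.0175 to 0.139 FPKM, so the 0 does not show that Mrpl53 is silent.

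The most abundant member was Mrpl38, of the central protuberance of the large subunit, with a mean of 128.8 FPKM. Mrpl52, a large-subunit protein without a bacterial counterpart, followed with 101.3 FPKM. Mrpl12, of the stalk that recruits translation factors, averaged 89.6 FPKM. Next came Mrps28, of the small subunit, with 80.6 FPKM, and Mrpl54, of the large subunit, with 75.8 FPKM. The least abundant of the tested genes were Mrpl47 with 2.28 FPKM, Mrps35 with 2.35 FPKM, Mrpl48 with 3.67 FPKM, Mrps25 with 4.11 FPKM and Mrps9 with 4.21 FPKM. FPKM divides by the length of all exons annotated for a gene, so the order of these levels depends on the annotation too.

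Most of the genes were higher in HKO than in Flox hepatocytes when both were given PA. With limma on log2(FPKM + 1), 44 of the 77 members tested rose and 0 fell at an adjusted p under 0.05, where 16.9% of all 9743 genes tested were called higher, 18.8% lower and 35.7% in either direction. The members' median log2 difference was 0.515, against 0.00288 for all genes, and the 44 that rose did so by 0.41 to 1.24 on the log2 scale. Without HKO PA library 1, 30 of the 77 rose and 0 fell, where 11.2% of all genes were called higher, and the members' median was 0.366. All 30 were among the 44. The risers that did not pass without that library were Mrpl1, Mrpl32, Mrpl34, Mrpl47, Mrpl48, Mrpl52, Mrpl55, Mrps9, Mrps14, Mrps15, Mrps16, Mrps24, Mrps28 and Mrps35. In bulk RNA, fewer cells of a type and less RNA per cell cannot be told apart.

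**Figure D1:**
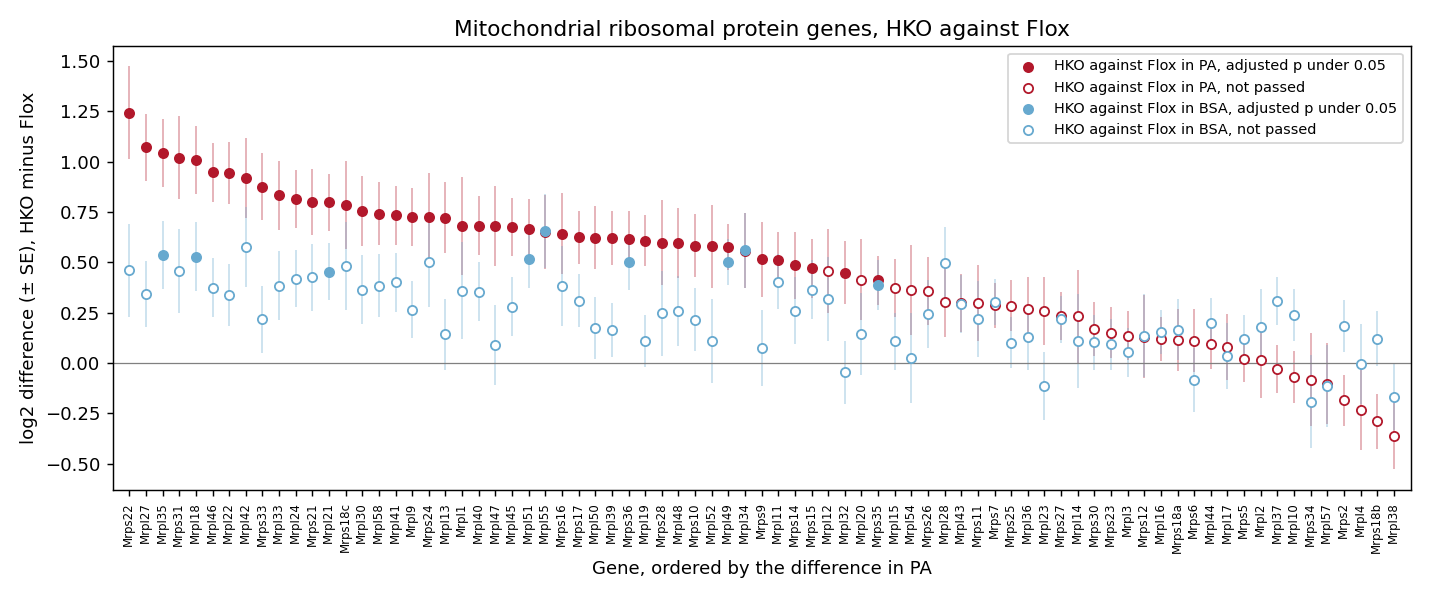
Log2 difference of HKO against Flox hepatocytes for the 77 tested mitochondrial ribosomal protein genes, ordered by the difference in PA (red) with the difference in BSA (blue), each with its standard error; filled points passed an adjusted p under 0.05. In PA, 44 points are filled, all above 0, and 8 open points lie below 0, down to -0.36 for Mrpl38; in BSA, 9 points are filled.

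Promoter windows are printed for the 3 genes that rose most in PA and for Mrps18b, which did not pass and lay below 0, so that the start regions of members that moved together can be read beside one that did not. Each window runs from 250 bases before to 50 bases after the start that RefSeq gives, on GRCm38.p6, 5′ to 3′ on the strand of the gene, and capitals mark the ETS motif CCGGAAGT in Mrps22 and Mrpl27, the core YY1 motif AAGATGGC in Mrpl35 and the core NRF1 motif CGCATGCG in Mrps18b:
Mrps22, chr9:98601630-98601929, minus strand: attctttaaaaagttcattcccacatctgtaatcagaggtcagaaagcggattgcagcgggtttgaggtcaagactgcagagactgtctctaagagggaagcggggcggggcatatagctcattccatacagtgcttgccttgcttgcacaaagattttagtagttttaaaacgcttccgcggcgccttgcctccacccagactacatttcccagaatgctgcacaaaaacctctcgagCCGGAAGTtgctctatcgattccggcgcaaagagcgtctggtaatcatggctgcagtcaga
Mrpl27, chr11:94653541-94653840, plus strand: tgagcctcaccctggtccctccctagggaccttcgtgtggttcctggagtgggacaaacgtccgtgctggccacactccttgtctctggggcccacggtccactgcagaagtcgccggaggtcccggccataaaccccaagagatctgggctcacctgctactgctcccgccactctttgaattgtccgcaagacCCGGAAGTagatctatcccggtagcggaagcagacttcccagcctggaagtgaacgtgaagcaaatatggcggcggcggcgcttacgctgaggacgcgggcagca
Mrpl35, chr6:71823735-71824034, minus strand: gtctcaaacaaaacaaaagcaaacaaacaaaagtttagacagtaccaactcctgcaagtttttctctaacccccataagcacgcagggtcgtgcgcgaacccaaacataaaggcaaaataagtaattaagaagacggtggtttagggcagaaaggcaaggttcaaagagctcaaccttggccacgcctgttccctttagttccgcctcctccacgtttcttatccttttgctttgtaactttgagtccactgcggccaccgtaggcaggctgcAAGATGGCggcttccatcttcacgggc
Mrps18b, chr17:35916391-35916690, minus strand: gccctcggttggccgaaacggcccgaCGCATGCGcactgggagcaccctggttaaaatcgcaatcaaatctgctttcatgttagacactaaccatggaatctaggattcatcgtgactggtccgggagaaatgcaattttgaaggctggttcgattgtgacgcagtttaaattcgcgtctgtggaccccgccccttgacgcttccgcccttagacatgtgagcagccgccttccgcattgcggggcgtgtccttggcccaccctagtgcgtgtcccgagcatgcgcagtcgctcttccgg
The ETS motif begins 11 bases before the start of Mrps22 and 55 bases before that of Mrpl27, the YY1 motif begins at base 24 of Mrpl35, counted from the start, and the NRF1 motif begins 224 bases before the start of Mrps18b.

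Mrps22 encodes a small-subunit protein particular to mitochondria, whose loss in people causes a combined respiratory chain deficiency. It was at 17.1, 10.4 and 10 FPKM in HKO PA, against 4.51, 4.31 and 4.83 FPKM in Flox PA, and the groups did not overlap. The log2 difference was 1.24 ± 0.23 (SE, n = 3 each; limma adjusted p = 0.0012), and 1.01 (adjusted p = 0.0046) without HKO PA library 1. In BSA it was at 6.34, 10.8 and 13.1 FPKM in HKO, against 6.26, 6.18 and 7.96 FPKM in Flox, so the groups overlapped, with a log2 difference of 0.46 ± 0.23 (limma adjusted p = 0.19).

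Mrpl27 encodes a large-subunit protein whose bacterial counterpart reaches toward the peptidyl transferase centre. Its FPKM values were 70.0, 47.3 and 43.2 in HKO PA, against 24.6, 25.8 and 22.9 in Flox PA, and 31.9, 30.01 and 37.9 in HKO BSA, against 25.03, 26.2 and 26.5 in Flox BSA. HKO libraries lay above Flox libraries in both media, and the gap was wider in PA, with a log2 difference of 1.07 ± 0.16 (limma adjusted p = 0.00025), than in BSA, with 0.34 ± 0.16 (adjusted p = 0.17). The interaction, 0.73 ± 0.23, did not pass (limma adjusted p = 0.17).

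Mrpl35, also of the large subunit, was at 28.8, 20.2 and 17.3 FPKM in HKO PA, against 10.8, 9.67 and 9.50 FPKM in Flox PA. In BSA the values were 15.7, 18.6 and 20.9 FPKM in HKO, against 11.7, 12.2 and 13.0 FPKM in Flox. It is one of the 9 members that passed in both media, by 1.04 ± 0.17 in PA (limma adjusted p = 0.00039) and 0.54 ± 0.17 in BSA (adjusted p = 0.037), and the groups did not overlap in either.

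Mrps31, a small-subunit protein particular to mitochondria, had 15.9, 12.5 and 11.3 FPKM in HKO PA, against 6.03, 5.68 and 6.20 FPKM in Flox PA. Its groups were apart in PA, by 1.02 ± 0.21 on the log2 scale (limma adjusted p = 0.0022). They overlapped in BSA, where HKO had 6.99, 11.2 and 12.9 FPKM, against 6.59, 5.72 and 9.26 FPKM in Flox.

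Mrpl18, whose human protein takes part in carrying cytosolic 5S rRNA into mitochondria, was at 27.8, 20.2 and 21.3 FPKM in HKO PA, against 9.87, 11 and 11.8 FPKM in Flox PA, a log2 difference of 1.01 ± 0.17 (limma adjusted p = 0.00056). The levels were 13.7, 20.5 and 19.9 FPKM in HKO BSA, against 11.2, 11.2 and 13.9 FPKM in Flox BSA. It passed in BSA too (0.53 ± 0.17, limma adjusted p = 0.043), although HKO BSA library 1 lay just under the highest Flox BSA library. In the annotation 10.1% of its exon bases are shared with Tcp1 on the opposite strand.

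Mrpl46, a mitochondria-specific protein of the central protuberance, was at 63.9, 45.0 and 45.4 FPKM in HKO PA, against 25.6, 24.9 and 27.0 FPKM in Flox PA. It was at 34.6, 38.2 and 43.6 FPKM in HKO BSA, against 29.1, 28.8 and 30.9 FPKM in Flox BSA. The difference in PA was 0.95 ± 0.15 (limma adjusted p = 0.00027), and that in BSA, 0.37 ± 0.15, did not pass (adjusted p = 0.091). Of its exon bases, 12.2% are shared with another member, Mrps11, on the opposite strand, which did not pass in PA (0.30, limma adjusted p = 0.23).

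**Figure D2:**
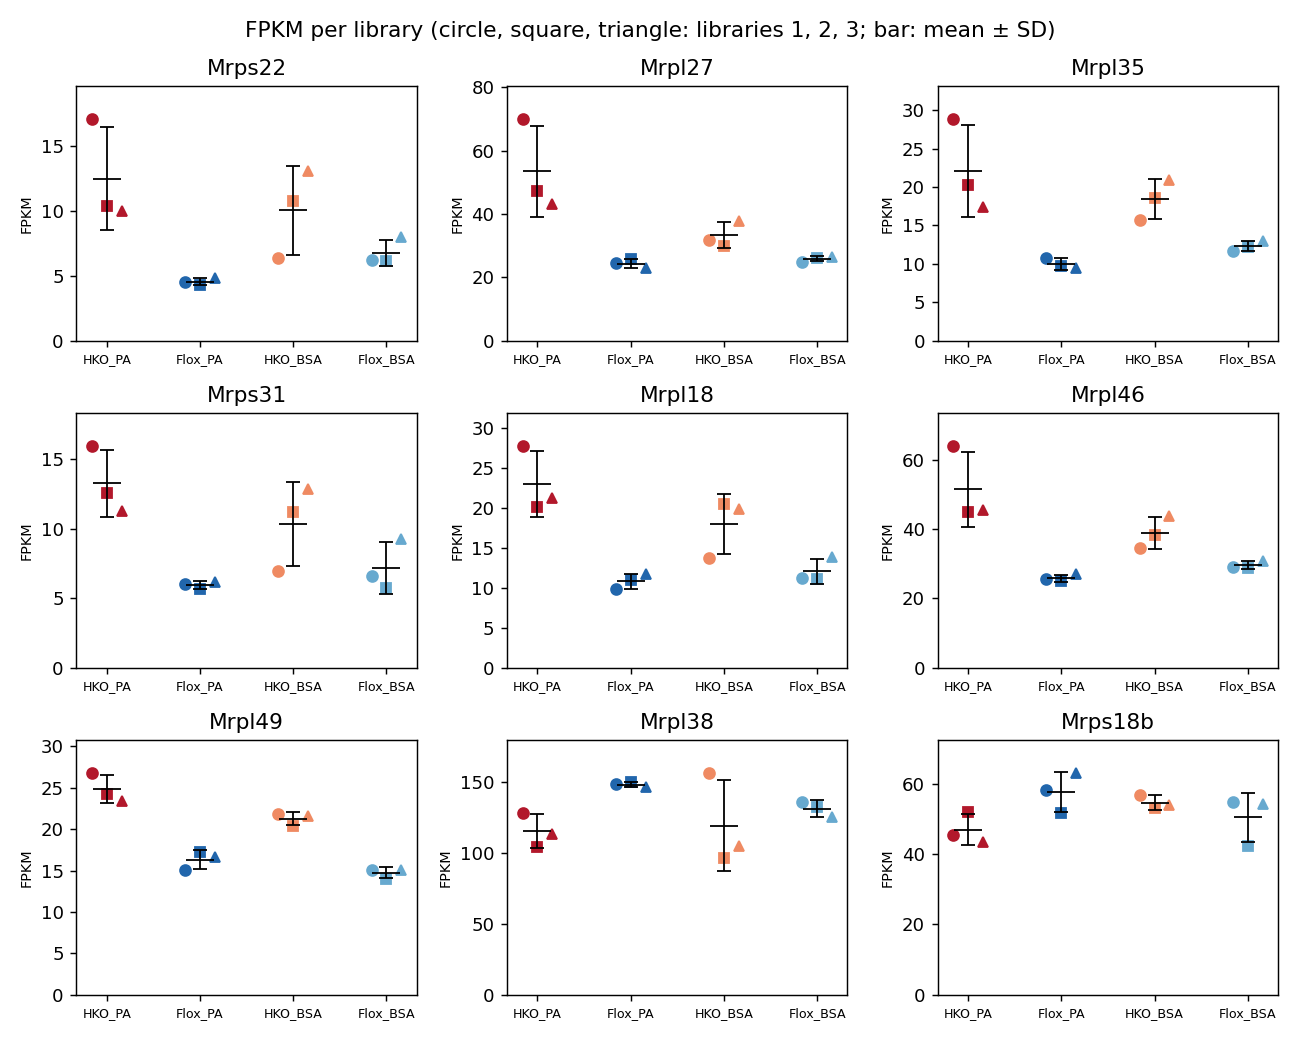
FPKM in each library for 9 members, by group, with circles, squares and triangles for libraries 1, 2 and 3 and bars for the mean ± SD (n = 3). The 6 genes that rose most in PA and Mrpl49 have every HKO PA library above every Flox PA library, and HKO PA library 1 is the highest of the 12 for each of these 7, whereas Mrpl38 lies lower in HKO PA and Mrps18b overlaps.

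Both subunits took part. In PA, 29 of the 50 large-subunit genes tested rose (median log2 difference 0.578), 14 of the 26 small-subunit genes rose (median 0.44), and so did Mrps36. Without HKO PA library 1 the counts were 22 of 50 (median 0.406) and 7 of 26 (median 0.291). Members with a bacterial counterpart and those particular to mitochondria gave 27 of 48 and 16 of 28, and 16 of 48 and 13 of 28 without that library. The summed level of the large subunit was 2577, 1876 and 1917 FPKM in HKO PA, against 1575, 1621 and 1521 FPKM in Flox PA. The small subunit summed to 975.5, 705.2 and 706.7 FPKM in HKO PA, against 581.4, 589 and 573.6 FPKM in Flox PA. In both subunits the HKO PA sums lay above those of Flox PA, library 1 being the highest of the 3.

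Other large-subunit genes rose in PA too. Near the polypeptide exit tunnel, Mrpl22 (0.94 on the log2 scale), Mrpl24 (0.82) and the membrane-facing Mrpl45 (0.67) rose, while Mrpl23, of the same site, did not pass (0.26). Of the stalks, Mrpl1 rose (0.68) and so did Mrpl11 (0.51), which sits at the base of the factor-binding stalk, whereas Mrpl12 and Mrpl10 of that stalk did not pass. Mrpl58, a peptidyl-tRNA hydrolase built into the large subunit, was at 38.0, 25.9 and 24.7 FPKM in HKO PA, against 17.4, 17.1 and 16.3 FPKM in Flox PA, and rose by 0.74 ± 0.16 (limma adjusted p = 0.0028). The other large-subunit genes that rose were Mrpl9, Mrpl13, Mrpl19, Mrpl21, Mrpl30, Mrpl32, Mrpl33, Mrpl34, Mrpl39, Mrpl40, Mrpl41, Mrpl42, Mrpl47, Mrpl48, Mrpl49, Mrpl50, Mrpl51, Mrpl52 and Mrpl55, by 0.45 (Mrpl32) to 0.92 (Mrpl42).

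Of the small subunit, Mrps33 (0.88), Mrps21 (0.80), Mrps18c (0.79), Mrps24 (0.72), Mrps16 (0.64), Mrps17 (0.62), Mrps28 (0.60), Mrps10 (0.58), Mrps9 (0.51), Mrps14 (0.49), Mrps15 (0.47) and Mrps35 (0.41) rose with Mrps22 and Mrps31. Of the most and the least abundant members, Mrpl52 was at 185, 109 and 112 FPKM in HKO PA, against 90.7, 94.1 and 78.3 FPKM in Flox PA (log2 difference 0.58 ± 0.21, limma adjusted p = 0.043), and Mrps28 at 127, 92.9 and 91.2 FPKM in HKO PA, against 72.3, 70.8 and 59.9 FPKM in Flox PA (0.60 ± 0.21, adjusted p = 0.041). At the low end, Mrpl47 was at 5.002, 2.81 and 2.25 FPKM in HKO PA, against 1.71, 1.87 and 1.31 FPKM in Flox PA (0.68 ± 0.20, limma adjusted p = 0.018). Mrpl48 was at 6.46, 4.65 and 3.91 FPKM in HKO PA, against 2.55, 2.89 and 3.32 FPKM in Flox PA (0.60 ± 0.17, limma adjusted p = 0.017), and Mrps9 at 5.72, 4.93 and 5.03 FPKM in HKO PA, against 3.07, 3.25 and 3.77 FPKM in Flox PA (0.51 ± 0.19, adjusted p = 0.046). None of these 5 genes had overlapping groups in PA, and none of them passed without HKO PA library 1, where the differences were 0.33 for Mrpl52, 0.44 for Mrps28, 0.43 for Mrpl47, 0.43 for Mrpl48 and 0.46 for Mrps9 (limma adjusted p = 0.18, 0.16, 0.067, 0.072 and 0.13).

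All 44 risers had non-overlapping groups in PA. Over the 77, 55 had every HKO PA library above every Flox PA library and 1, Mrpl38, had every HKO PA library below, where 26% of all genes fell in each of these classes. Of the 44, 29 passed with each HKO PA and each Flox PA library left out in turn. BSA libraries were not left out for this comparison, and the share of all genes that passed so is not given here.

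The remaining 33 members did not pass in PA, and 8 of them had differences below 0. Mrpl38 was at 128, 104 and 114 FPKM in HKO PA, against 149, 150 and 146 FPKM in Flox PA, so the most abundant member was lower in every HKO PA library, by -0.36 ± 0.16 on the log2 scale (limma adjusted p = 0.098). In BSA its groups overlapped, at 157, 97.0 and 105 FPKM in HKO, against 136, 133 and 125 FPKM in Flox. The other 7 were Mrps18b (-0.29), Mrpl4 (-0.23), Mrps2 (-0.18), Mrpl57 (-0.10), Mrps34 (-0.08), Mrpl10 (-0.07) and Mrpl37 (-0.03), and the groups of each overlapped in PA. Of the exon bases of Mrps34, 77.8% are shared with 2 other genes, 1309 bases of them with Mapk8ip3 on the opposite strand, so its values may hold reads of other genes; no source used here says whether the counting used strand.

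Mrpl12, which also binds the mitochondrial RNA polymerase, was at 135, 95.5 and 96.7 FPKM in HKO PA, against 82.5, 85.4 and 67.7 FPKM in Flox PA. Those groups did not overlap, but the spread was wide and the difference of 0.46 ± 0.21 did not pass (limma adjusted p = 0.10). Mrpl10, which anchors the stalk, was at 53.8, 53.4 and 54.9 FPKM in HKO PA, against 52.8, 60.2 and 57.4 FPKM in Flox PA, at closely similar levels in all 6 libraries. Mrpl54 overlapped too, at 124, 76.3 and 76.1 FPKM in HKO PA, against 67.2, 76.2 and 65.8 FPKM in Flox PA (0.36 ± 0.22, limma adjusted p = 0.22).

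At the decoding site of the small subunit, Mrps12 was at 69.8, 47.7 and 55.0 FPKM in HKO PA, against 53.9, 53.5 and 48.1 FPKM in Flox PA, and Mrps5 was at 8.65, 7.47 and 8.66 FPKM in HKO PA, against 7.68, 8.04 and 8.61 FPKM in Flox PA. Both overlapped, with log2 differences of 0.13 ± 0.21 and 0.02 ± 0.12 (limma adjusted p = 0.65 and 0.90). Mrps25, at 5.56, 4.25 and 4.56 FPKM in HKO PA, against 3.98, 3.67 and 3.54 FPKM in Flox PA, did not overlap and did not pass (0.29 ± 0.13, limma adjusted p = 0.095); 69.8% of its exon bases are shared with Nr2c2 on the opposite strand.

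The family holds 3 paralogs of bacterial S18. Mrps18c, of the small subunit, was at 36.6, 22.1 and 17.97 FPKM in HKO PA, against 13.5, 15.4 and 12.5 FPKM in Flox PA, and rose by 0.79 ± 0.22 (limma adjusted p = 0.014), and by 0.50 (adjusted p = 0.047) without HKO PA library 1. Mrps18a, of the large subunit, was at 33.9, 23.3 and 25.8 FPKM in HKO PA, against 24.5, 25.7 and 25.3 FPKM in Flox PA (0.12 ± 0.15, adjusted p = 0.58). Mrps18b, of the small subunit, was at 45.5, 51.9 and 43.5 FPKM in HKO PA, against 58.1, 51.6 and 63.0 FPKM in Flox PA (-0.29 ± 0.14, adjusted p = 0.11). Only the groups of Mrps18c were apart, and the differences between the paralogs were not tested. In BSA the log2 differences were 0.48 for Mrps18c, 0.17 for Mrps18a and 0.12 for Mrps18b, and none passed.

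Fewer members passed in BSA. There, 9 of the 77 members rose and 0 fell, where 9.63% of all genes were called higher and 20.5% in either direction, so the members' 11.7% is close to the background of genes called higher. Their median log2 difference was 0.246, against 0.0395 for all genes. In 31 members every HKO BSA library lay above every Flox BSA library and in 0 every one lay below, where 19.7% and 18% of all genes did so. All 9 also rose in PA, where they make up 20.5% of the 44. The BSA and PA comparisons share no library, but the fit used the same estimate of a gene's spread for both, so the calls are not independent. Without HKO PA library 1, Mrpl34, Mrpl55 and Mrps35 did not pass in PA. The share of all genes called higher in BSA that also rose in PA is not given here. The count rests on single libraries. It was 1 without Flox BSA library 1, 1 without Flox BSA library 2 and 2 without HKO BSA library 3. Without HKO BSA library 1, 11 rose and 2 fell (Mrpl38 and Mrps34). Only Mrpl49 passed with each BSA library left out in turn. The shares of all genes called without these libraries are not given here.

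Mrpl49, a large-subunit protein particular to mitochondria, was at 21.9, 20.3 and 21.6 FPKM in HKO BSA, against 15.1, 13.9 and 15.1 FPKM in Flox BSA, and at 26.8, 24.3 and 23.4 FPKM in HKO PA, against 15.0, 17.3 and 16.6 FPKM in Flox PA. The libraries of each group lay close together, and the differences were alike, at 0.50 ± 0.11 in BSA (limma adjusted p = 0.0056) and 0.58 ± 0.11 in PA (adjusted p = 0.0017).

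Mrpl55, the counterpart of bacterial L31, was at 77.1, 47.4 and 59.9 FPKM in HKO BSA, against 38.9, 38.2 and 36.5 FPKM in Flox BSA, the widest log2 difference of the family in BSA (0.66 ± 0.18, limma adjusted p = 0.022). Mrpl34 was at 90.7, 58.1 and 73.6 FPKM in HKO BSA, against 54.6, 49.9 and 43.5 FPKM in Flox BSA (0.56 ± 0.19, adjusted p = 0.048). In both, HKO BSA library 1 was the highest and the groups did not overlap. Mrpl51 was at 20.1, 17.8 and 21.3 FPKM in HKO BSA, against 13.4, 12.5 and 14.6 FPKM in Flox BSA (0.52 ± 0.14, limma adjusted p = 0.022).

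Mrps36, the member of the 2-oxoglutarate dehydrogenase complex, was at 9.91, 7.82 and 8.14 FPKM in HKO BSA, against 5.95, 5.47 and 5.87 FPKM in Flox BSA (0.50 ± 0.14, limma adjusted p = 0.020). In PA it was at 13.6, 10.3 and 10.9 FPKM in HKO, against 6.92, 6.54 and 8.16 FPKM in Flox (0.61 ± 0.14, adjusted p = 0.0043). It was apart in both media. The last of the 9 were Mrpl21 (0.45) and Mrps35 (0.39), a small-subunit gene at 2.31, 2.42 and 2.56 FPKM in HKO BSA, against 1.37, 1.58 and 1.95 FPKM in Flox BSA.

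PA was also set against BSA within each genotype. In HKO hepatocytes 0 of the 77 passed with limma on log2(FPKM + 1), where 1.68% of all genes were called higher, 1.25% lower and 2.94% in either direction. An unadjusted p under 0.05 was found for 20 of the 77 members and for 2031 of all 9743 genes. Limma-voom on the recovered reads called 1 member, Mrpl27, and its share of all genes called is not given here. The members' median log2 difference was 0.267, against -4.22e-05 for all genes, and it was 0.122 without HKO PA library 1. In 20 members every HKO PA library lay above every HKO BSA library, and in Mrps18b every one lay below, where 9.1% of all genes did each. The smallest p-values were those of Mrpl27 (0.64 ± 0.16, limma adjusted p = 0.054), Mrpl22 (0.51 ± 0.15, adjusted p = 0.095) and Mrps33 (0.49 ± 0.17, adjusted p = 0.13). Mrpl22 was at 68.6, 52.0 and 50.4 FPKM in HKO PA, against 36.9, 37.5 and 44.1 FPKM in HKO BSA. Its groups were apart, with library 1 of HKO PA the farthest.

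In Flox hepatocytes 0 of the 77 passed with limma, where 1.29% of all genes were called higher, 0.913% lower and 2.21% in either direction. An unadjusted p under 0.05 was found for 2 of the 77 members and for 1552 of all 9743 genes. Limma-voom called 0 members. The members' median log2 difference was 0.044, against 0.015 for all genes. Every Flox PA library lay above every Flox BSA library in 17 members and below in 9, where 22.1% and 16.9% of all genes did so. The smallest p-values were those of Mrps2, Mrpl10 and Mrps35. Mrps2, a small-subunit protein with a bacterial counterpart, was at 14.7, 16.2 and 17.0 FPKM in Flox PA, against 12.8, 11.1 and 12.8 FPKM in Flox BSA (0.35 ± 0.13, limma adjusted p = 0.21). Mrpl10 had the 52.8 to 60.2 FPKM given above in Flox PA, against 46.7, 43.7 and 44.2 FPKM in Flox BSA (0.33 ± 0.13, adjusted p = 0.24), and Mrps35 had 2.29, 1.86 and 2.31 FPKM in Flox PA, against its 1.37 to 1.95 FPKM in Flox BSA. The groups of Mrps2 and Mrpl10 did not overlap and those of Mrps35 did.

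The interaction, which is the effect of PA in HKO minus that in Flox, passed for 0 of the 77 members with limma, where 0.267% of all genes passed. It passed for 0 members with limma-voom. An unadjusted p under 0.05 was found for 10 of the 77 members and for 1699 of all 9743 genes. The median interaction over the members was 0.226, and 0.0478 without HKO PA library 1. The log2 difference between genotypes was the higher one in PA in 61 of the 77 members and in 5033 of all 9743 genes. This count without HKO PA library 1 is not given here. No member was shown to respond to PA differently in the 2 genotypes. Mrpl27 (0.73), Mrps33 (0.66) and Mrpl22 (0.60) had the smallest p-values, with adjusted p of 0.17, 0.21 and 0.21 by limma. Mrps33, a small-subunit protein particular to mitochondria, was at 41.2, 26.4 and 27.4 FPKM in HKO PA, against 20.0, 20.2 and 25.9 FPKM in HKO BSA, and at 16.3, 16.03 and 17.1 FPKM in Flox PA, against 18.4, 17.5 and 20.2 FPKM in Flox BSA. In Mrps33 and Mrpl46, found by searching all members, every PA library lay above every BSA library in HKO and below every one in Flox. The share of all genes with that pattern was not counted, and the interaction passed for neither gene.

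**Figure D3:**
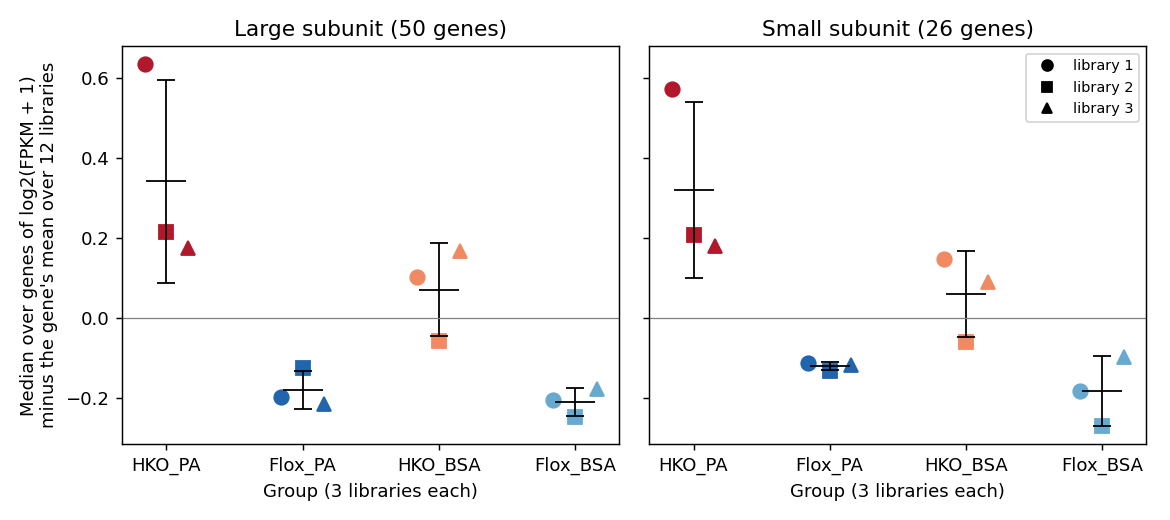
Median over the tested genes of each subunit of log2(FPKM + 1) minus the gene's mean over the 12 libraries, for each library, with the mean ± SD of each group (n = 3). In both subunits the 3 HKO PA libraries lie above the 3 Flox PA libraries, and library 1 of HKO PA lies far above the other two of its group.

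The members' values shifted together between libraries. Over the 77 tested, the median deviation from a gene's mean over the 12 libraries was 0.595, 0.212 and 0.177 on the log2 scale in HKO PA, against -0.155, -0.131 and -0.182 in Flox PA, and 0.121, -0.0567 and 0.148 in HKO BSA, against -0.205, -0.262 and -0.146 in Flox BSA. The groups were apart in both media, more widely in PA. A principal component of the members' values carried 74% of their variance and placed HKO PA library 1 at 5.55, against 1.92 and 1.73 for the other HKO PA libraries. That library held the highest FPKM of the 12 for 62 of the 77 members (80.5%), and for 26.8% of all genes tested. The next was HKO BSA library 1, with 10 of the 77. Members' reads were 0.602%, 0.527% and 0.521% of all reads in HKO PA, against 0.470%, 0.463% and 0.453% in Flox PA, and 0.513%, 0.429% and 0.481% in HKO BSA, against 0.462%, 0.445% and 0.449% in Flox BSA. The median SD of a member within its group was 0.266 in HKO PA, against 0.0835 in Flox PA, and 0.204 in HKO BSA, against 0.108 in Flox BSA, all on the log2 scale.

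Base composition moved with the differences in the comparisons that involve PA. Over the 77 members the Spearman correlation of the log2 difference with the GC content of the transcripts was -0.37 for HKO against Flox in PA, as it was -0.352 over all genes, -0.183 for PA against BSA in HKO, against -0.238 over all genes, and 0.501 for PA against BSA in Flox, against 0.475 over all genes. For HKO against Flox in BSA it was -0.0604, against 0.0299 over all genes. These are descriptions across genes, which share the same libraries. In PA, 30 of the 39 members at or under the members' median GC of 51.3% rose in HKO (median log2 difference 0.621), and 14 of the 38 over it rose (median 0.301). With the GC trend of each library removed, 47 of the 77 rose, 41 of them among the 44, and the median was 0.495. With the trend on gene length removed, 38 rose and 3 fell (Mrpl38, Mrps18b and Mrpl10), 36 of the 38 being among the 44, and the median was 0.425. With both trends removed, 41 rose and 5 fell, and the median was 0.378. The shares of all genes called with these trends removed are not given here. The members are short, with a median length of 2255 bases, against 3638.5 bases in the other genes tested.

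**Figure D4:**
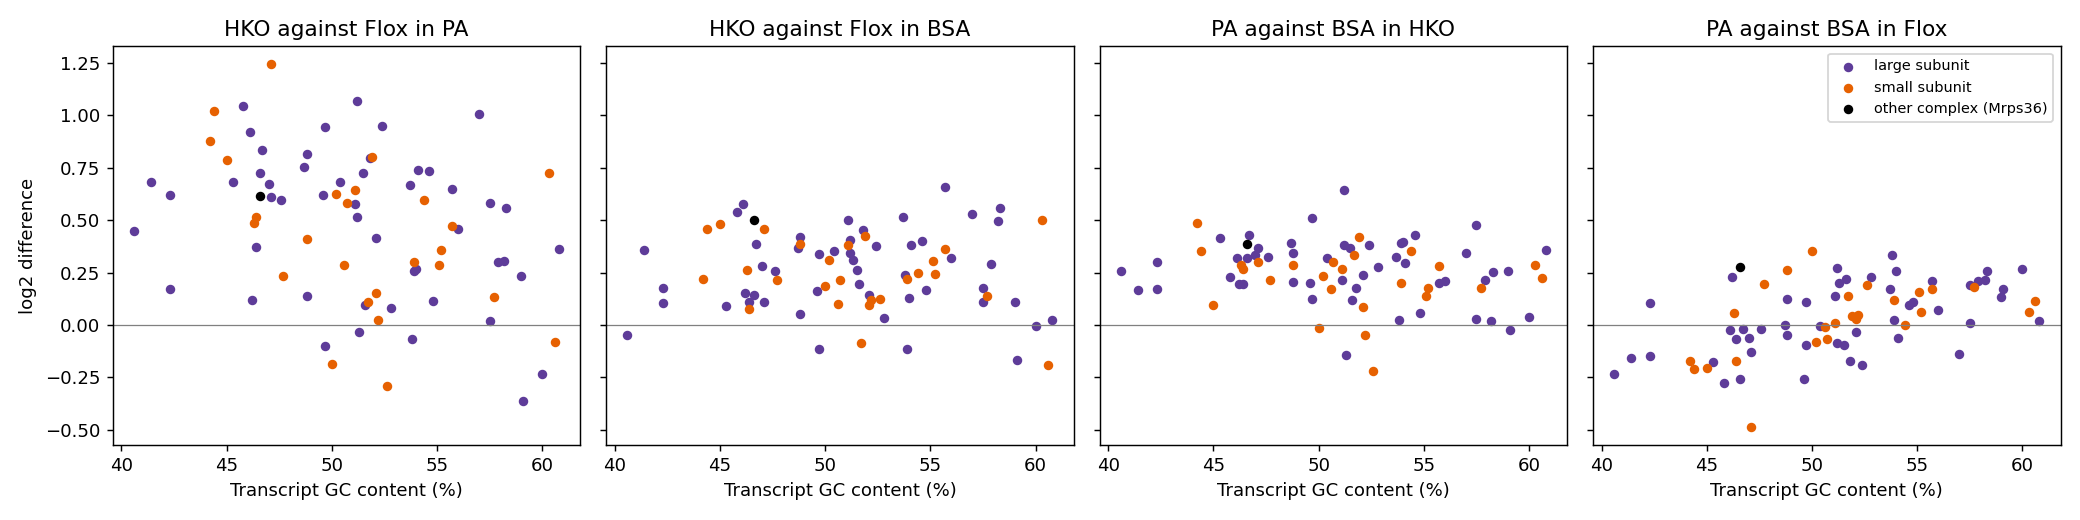
Log2 difference of each tested member against the GC content of its transcripts in percent, for HKO against Flox in PA, HKO against Flox in BSA, PA against BSA in HKO and PA against BSA in Flox; large-subunit genes are purple, small-subunit genes orange and Mrps36 black. The Spearman correlations are -0.37, -0.0604, -0.183 and 0.501, and in the left panel 4 of the 5 points above 1 lie under the members' median GC content of 51.3%.

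Genes for other parts of the same machinery were set beside the family in PA, with the differences between lists not tested. Of the proteins of the mitochondrial ribosome that carry other names, Chchd1, of the small subunit, rose by 1.0 and the other 4 tested did not pass. Both mitochondrial rRNAs rose, mt-Rnr2 of the large subunit by 1.29 and mt-Rnr1 of the small subunit by 1.19, and both passed without HKO PA library 1. All 13 mRNAs of the mitochondrial genome, the messages that this ribosome translates, rose (median 1.76), 12 of 13 without that library. Of the 78 nuclear genes for respiratory chain and ATP synthase subunits, 49 rose and 0 fell (median 0.634), Uqcrc2 by 1.41 and Uqcrb by 1.28, and without that library 35 rose and 1 fell. Of the 79 cytosolic ribosomal protein genes, 48 rose and 0 fell (median 0.582), led by Rps4x (1.22) and Rpl6 (1.19), and 28 rose without that library. In BSA the counts of risers were 0 of 79 for cytosolic ribosomal proteins, 16 of 78 for nuclear respiratory chain genes, 12 of 13 for mitochondrial mRNAs and 0 of 2 for the rRNAs.

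Genes that build and serve the mitochondrial ribosome passed in both directions in PA, where 35.7% of all genes passed, against 14.3% of translation factors, 28% of assembly genes, 29.4% of synthetases, 33.3% of chaperones and proteases and 50% of genes for mitochondrial DNA. Of 14 translation factors tested, 2 rose, the ribosome recycling factor Mrrf (0.89) and the initiation factor Mtif3 (0.48), and 0 fell. Of 25 genes for assembly and rRNA modification, 5 rose, led by Mterf3 (0.74) and Malsu1 (0.73), and 2 fell, and without HKO PA library 1 the counts were 2 and 1. Of 17 aminoacyl-tRNA synthetase and related genes, 4 rose, led by Yars2 (0.68) and Qrsl1 (0.57), and 1 fell, against 3 and 0 without that library. Of 8 genes for transcription and upkeep of mitochondrial DNA, 3 rose, led by the elongation factor Tefm (1.02) and the initiation factor Tfb2m (0.80), and 1 fell, against 1 and 0 without that library. Of 12 chaperones and proteases, 2 rose, the co-chaperonin Hspe1 by 0.64 foremost, and 2 fell, the AAA protease Afg3l2 by 0.82 foremost, against 1 and 1 without that library. Of 7 upstream regulators of mitochondrial biogenesis tested, 0 rose and Pprc1, a coactivator of the PGC-1 family, fell by 0.74. In BSA 2 assembly genes (Mrm2 and Nsun4) and 4 synthetase genes (Pars2 and Hars2 foremost) rose, and 0 passed in the other lists named in this paragraph.

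The promoters of the family were read for 5 motifs on both strands, each counted on its own, so that overlapping matches count for both motifs. RefSeq windows were found for 69 of the 78 members. The ETS motif CCGGAAGT was in 12 of them (17.4%), against 10.5% of windows of the other genes tested and 4.31% of all 27025 windows. The core NRF1 motif CGCATGCG was in 7 (10.1%), against 4.7% and 2.07%, and the core YY1 motif AAGATGGC was in 12 (17.4%), against 5.67% and 3.19%. The NFY motif CCAAT was in 27 (39.1%), against 42% and 41.1%, and the Sp motif GGGCGG in 34 (49.3%), against 70.2% and 38.2%. Among the 40 members with a window that rose in PA, 8 held the ETS motif, 4 the NRF1 motif, 5 the YY1 motif, 15 the NFY motif and 20 the Sp motif. Among the 28 that did not pass, 4 held the ETS motif, 3 the NRF1 motif, 7 the YY1 motif, 11 the NFY motif and 14 the Sp motif. The NRF1 cores were in Mrpl9, Mrpl22, Mrpl32 and Mrpl39, which rose, and in Mrpl10, Mrpl17 and Mrps18b, which did not pass. Matches to short motifs describe the letters only and show no binding.

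Of the 77 tested members, 18 (23.4%) have, within 1000 bases upstream of their start, the start of a protein-coding gene that runs the other way. The same held for 938 of 8770 other protein-coding genes tested (10.7%). Pairs whose 5′ ends overlap, such as Mrpl46 and Mrps11, were not counted. In GENCODE M21 the 18 include Mrpl49, whose start lies 59 bases from that of Fau, and Mrps18c, 29 bases from Helq. In all, 18 of the 78 members, 7 of them among the 44 that rose in PA, share over 10% of their exon bases with another gene. Reads of a pseudogene can also pass between copies: Mrpl48-ps was at 2.29 ± 0.547 FPKM in HKO PA, against 0.506 ± 0.0369 FPKM in Flox PA (SD, n = 3 each), and rose with Mrpl48 (1.12, limma adjusted p = 0.00083), so the rise of Mrpl48 is uncertain in size. Mrpl23-ps1 was at 3.43 FPKM in HKO PA, against 4.03 FPKM in Flox PA, and did not pass (-0.255, limma adjusted p = 0.43). Over the 12 libraries Mrps36-ps1 was at 0.175 to 1.89 FPKM and Mrps36-ps2 at 0 to 1.64 FPKM. The values of Mrpl23 and Mrps36 may be touched in the same way.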

How the data were processed

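RNA of mouse primary hepatocytes was sequenced in 12 libraries, 3 in each of 4 groups, prepared with a NEBNext Ultra kit per the labels. The authors deposited FPKM values per gene, with the gene length in bases; per the submitters' processing notes the builds are GRCm38 and mm10, and no source used here names the aligner or counter. In every library FPKM times gene length lay within 0.01 of whole multiples of the value of 1 read. This held for 100% of the entries checked, which were those above 0 without the highest read counts. Reads were so recovered, 15020982 to 18418586 per library. Intervals from them cover counting error only. Genes averaging 1 FPKM or more (9743, of which 77 members) were fitted with limma 3.58.1 in R 4.3.3 on log2(FPKM + 1), which understates changes of low genes, with 4 group means and an intensity trend, and p-values were adjusted by Benjamini-Hochberg over all genes; called means an adjusted p under 0.05. Values are given for up to 6 members per direction with the largest called change in each comparison (the 3 smallest p-values where none passed), the 5 most and least abundant and 10 members fixed by name; others named were chosen after their values were seen. Subunits came from textbook knowledge. Members, lists and motifs were chosen with earlier results of these data known. Alternatives covered the pseudocount, the filter, the scaling, GC and length trends (the GC trend added after seeing the data), sample weights, voom and the replicate number. Each library was also left out, for the comparisons that use its group. Coordinates of members matched GENCODE M21 for 73 of 78; promoter windows are from RefSeq.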

Additional observations from a re-analysis of the deposited data

How the results depend on the processing

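The count of members that rose in PA stayed within 1.5 times of 44 under every alternative run, with 30 to 44 passing as single libraries were left out. In BSA the count of 9 became 14 with quantile normalization (13 higher, and Mrpl38 lower), 5 with median log ratio scaling, 54 with sample weights (52 higher, and Mrpl38 and Mrps34 lower), 0 with limma-voom and 31 without both HKO libraries numbered 1 (29 higher, and the same 2 genes lower), and ranged from 1 to 13 with single libraries left out; the weights of both HKO libraries numbered 1 were 0.145. For PA in HKO, 1 member passed with a filter of 5 FPKM, quantile normalization, median log ratio scaling, limma-voom or the GC trend removed, and 2 with sample weights or with the GC and length trends removed, against 0 to 1 with single libraries left out. For PA in Flox, 13 passed with sample weights (10 higher, 3 lower), 5 with only the compared groups fitted (4 higher, 1 lower) and 3 without both HKO libraries numbered 1 (2 higher, 1 lower), against 0 to 0 with single libraries left out. For the interaction 2 passed with sample weights, and 0 to 0 with single libraries left out. The cause of these changes was not tested. The shares of all genes called are not given beside these counts. A change in the family's count therefore cannot be told from a change in calling over all genes. Limma-voom put the median of all genes at -0.131 in BSA and -0.163 in PA, and the members' median lay 0.223 and 0.567 above it. In PA, uncalled values of Mrps12, Mrps18a and Mrps5 lay at -0.01, -0.03 and -0.01 without HKO PA library 1, and Mrpl16, at 0.12 as reported, lay at -0.44 with the GC and length trends removed. In PA some alternatives called members lower that the fit as reported left uncalled: Mrpl38 and Mrps18b with quantile normalization and with limma-voom, Mrpl38 and Mrpl4 with sample weights, and Mrpl38, Mrpl16, Mrps18b, Mrpl10 and Mrps2 with both trends removed. Same-numbered libraries correlated at -0.484 to 0.363 in their deviations, and differently numbered libraries of a genotype at -0.3 to 0.509. With 3 libraries per group these correlations cannot settle whether the numbers pair the samples. With the replicate number as a block, 42 members passed in PA, 8 in BSA and 0 in the other comparisons. With 3 libraries per group and a wide spread in HKO, smaller differences could not be called.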
